A study of Mus musculus with 8 samples.

Results

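Mismatch repair genes were followed in mouse embryonic stem (ES) cells exposed to cisplatin, a platinum drug that crosslinks DNA. The genes were the MutS homologs Msh3 and Msh6 and the MutL homologs Mlh3, Pms1 and Pms2. They were listed by name, with earlier results of these data known. They were read by 9 of the 45141 probe sets on the array, those whose only gene symbol is one of these names, and they make up 5 of the 17098 genes tested. Where a gene has several probe sets, the brightest on average across the 8 arrays leads.

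All cells were HPRT-deficient ES cells of strain C57BL/6 at passages 19 to 22. They were kept on feeder-coated plates and then on gelatin before the experiment. The treated group received 2.5 µM cisplatin for 8 h (4 arrays), and the control group received the solvent dimethyl sulfoxide for 8 h (4 arrays). Replicates are numbered 3 to 6 in each group. Nothing in the labels ties them to separate cultures, and all p-values below therefore refer to the spread among these arrays, part or all of which may be technical. Values are log2 expression from a 3′-primed array, and the number of arrays limits the precision. Since RNA of whole cultures was read, fewer cells of a type and less RNA per cell cannot be told apart.

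Mismatch repair removes base mispairs and small loops left behind by DNA replication. MutS dimers find the error: Msh6 forms, with a shared partner, the dimer that binds single mispairs and also recognises platinum adducts between neighbouring bases, and Msh3 forms the dimer that binds larger insertion and deletion loops. MutL dimers then license the cut and the excision of the new strand. Pms2 carries the nicking activity of the main MutL dimer, Mlh3 belongs to a dimer known best for meiotic crossovers, and the part of Pms1 in repair is less well defined.

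Over the tested genes, 2 arrays of one group correlated at 0.997 to 0.998 and 2 arrays of different groups at 0.992 to 0.995. All 8 p53-pathway genes taken as a check of the treatment were higher with cisplatin. This list was written with earlier results of these data known. Among its genes, Cdkn1a, the cell cycle inhibitor p21, was higher by 1.22 ± 0.12 (log2 fold change ± SE, limma adjusted p = 9.82e-05) and Mdm2, the p53 ubiquitin ligase gene, by 1.48 ± 0.12 (limma adjusted p = 4.79e-05). Over all 17098 genes, 11.6% were higher and 7.69% lower at an adjusted p under 0.05 (limma). The 11 ES cell markers measured all lay above the array background of 3.10, and 6 of them were lower with cisplatin. Of 12 fibroblast markers, which feeder cells would carry, 8 lay below background in both groups. Thy1 was higher, and so was Fbln2, which is one of those below background. The mean level of all 12 fibroblast markers ran from 2.90 to 3.23 on the cisplatin arrays and from 2.92 to 3.11 on the control arrays. Thy1 alone averaged 5.23 with cisplatin and 4.62 in the controls. The part of either marker list in the results below was not tested.

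The 5 mismatch repair genes did not move together. Msh3 and Pms1 fell with cisplatin, by 0.51 ± 0.10 and 0.49 ± 0.06 on the log2 scale, which is 1.42-fold and 1.40-fold. Pms2 rose by 0.24 ± 0.07, or 1.18-fold, a call that several alternatives ended. Msh6 was at 0.03 ± 0.05 and Mlh3 at -0.14 ± 0.08, and neither passed the test. So 2 of the 5 members were lower and 1 was higher, where 7.69% of all 17098 genes were lower and 11.6% higher at an adjusted p under 0.05 (limma). That is 1989 genes higher and 1314 lower. Quantile normalization of the leading probe sets gave 1575 higher and 1711 lower. Centring on the array median of the leading probe sets, which was higher by 0.13 with cisplatin, gave 1087 higher and 3925 lower. The median change was -0.14 over the members and 0.01 over all genes tested. The counts over so few genes were not tested against the rest of the array.

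Msh6 barely differed between the groups. Its probe set 1416915_PM_at read 11.65, 11.68, 11.68 and 11.70 on the cisplatin arrays and 11.63, 11.65, 11.65 and 11.68 on the control arrays. The groups overlapped, and the SD was 0.02 in each. The change of 0.03 (limma adjusted p = 0.771) has a 95% confidence interval from -0.08 to 0.13, which on the linear scale is 0.948 to 1.09 times the control level. The sign of this small difference turned when each array was centred on its median, to -0.10 (adjusted p = 0.150).

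Msh3 was lower on every cisplatin array than on any control array. The leading probe set, 1424166_PM_at, read 7.11, 6.84, 6.90 and 7.18 with cisplatin and 7.71, 7.53, 7.51 and 7.30 in the controls. The nearest arrays of the groups, cisplatin replicate 6 and control replicate 6, were close to each other, so the gap was narrow while the means lay far apart. The groups did not overlap, as for 10.1% of all genes in this direction. The change of -0.51 ± 0.10 passed the test (limma adjusted p = 0.00629, 95% confidence interval -0.73 to -0.28), and 1.84% of all tested genes had a lower change.

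The other probe sets of Msh3 were dimmer. The next in brightness, 1422261_PM_a_at, read 4.71, 4.57, 4.58 and 4.57 with cisplatin and 4.83, 4.95, 4.75 and 5.02 in the controls. Again the groups did not overlap, as for 10.1% of all genes by their leading probe sets in this direction. This probe set fell by 0.28 ± 0.07 on the log2 scale. It passed in a fit over all 28898 probe sets with 1 gene (limma adjusted p = 0.0218), in which 7.69% of probe sets were lower. The dimmest, 1430643_PM_at, had a mean of 2.50 in both groups, under the background level of 3.10, and gives no reading of the gene. The 2 probe sets above background thus changed in the same direction by different amounts. The mean of all 3 probe sets changed by -0.26 (limma adjusted p = 0.0130), a value that includes the dimmest one.

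The MutS homologs therefore differed in their response. The log2 difference between Msh3 and Msh6, taken on each array, was lower by 0.53 ± 0.12 on the cisplatin arrays than on the control arrays (two-sided exact permutation test over 70 assignments of the arrays, p = 0.0286, the smallest p these arrays allow; adjusted p = 0.0286 over the 4 gene pairs compared). With the mean of the probe sets of each gene the difference was lower by 0.29 (exact permutation test, adjusted p = 0.0381). The comparison is of changes, because levels of different probe sets cannot be set against each other.

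Pms1 had the smallest p-value of the 5 members. Its only probe set, 1438071_PM_at, read 7.66, 7.55, 7.51 and 7.48 on the cisplatin arrays and 8.10, 7.92, 8.04 and 8.09 on the control arrays. The highest cisplatin value, in replicate 3, still lay well under the lowest control value, in replicate 4. Of all genes, 10.1% had groups apart in this direction. The change of -0.49 ± 0.06 had an adjusted p of 0.000534 (limma, 95% confidence interval -0.63 to -0.35), and 2.05% of all tested genes had a lower change. With each array left out in turn the change ran from -0.53 to -0.46, with adjusted p-values from 0.000693 to 0.00262 (limma).

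Pms2 went the other way by a smaller amount. The leading probe set, 1423539_PM_at, read 8.51, 8.33, 8.30 and 8.55 with cisplatin and 8.13, 8.19, 8.11 and 8.29 in the controls. Cisplatin replicates 3 and 6 were the high ones, and cisplatin replicate 5 lay just above control replicate 6. The groups did not overlap, as for 14.2% of all genes in this direction. The rise of 0.24 ± 0.07 passed the test narrowly (limma adjusted p = 0.0430, 95% confidence interval 0.08 to 0.41). It no longer passed when cisplatin replicate 3 or 6, or control replicate 3, 4 or 5, was left out (changes of 0.20 to 0.25, limma adjusted p = 0.101, 0.106, 0.108, 0.0817 and 0.107), after centring the arrays (0.11, adjusted p = 0.306) and with the mean of its 3 probe sets (0.10, adjusted p = 0.230).

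The 2 other probe sets of Pms2 were dim, and neither passed the test. Probe set 1432421_PM_at averaged 3.91 ± 0.10 (SD, n = 4) on the cisplatin arrays and 3.94 ± 0.11 on the control arrays, a change of -0.04 ± 0.08 (SE; limma adjusted p = 0.825 over all probe sets). Probe set 1436273_PM_at was at 3.14 ± 0.19 and 3.04 ± 0.03, close to the background level. Its change of 0.10 ± 0.09 (SE, limma adjusted p = 0.502 over all probe sets) gives little reading of the gene. The mean over all probe sets of Pms2 includes both dim ones. The direction of Pms2 therefore rests on 1 bright probe set.

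Mlh3 had 1 probe set, 1426052_PM_at, which read 6.86, 6.91, 6.84 and 7.08 with cisplatin and 7.24, 7.06, 7.01 and 6.93 in the controls. The groups overlapped, since cisplatin replicate 6 lay above 3 of the 4 control arrays. The change of -0.14 ± 0.08 did not pass (limma adjusted p = 0.284, 95% confidence interval -0.32 to 0.04). It passed after centring each array on its median, which lowers every change by 0.13, at -0.27 (adjusted p = 0.0279).

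**Figure D1:**
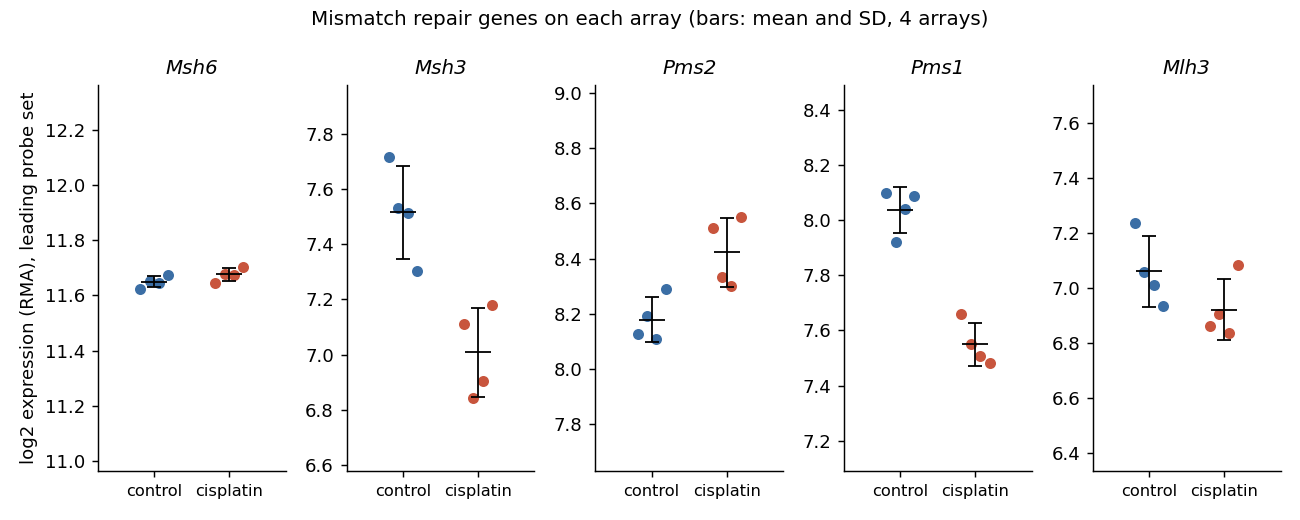
Each panel plots the log2 expression (RMA) of the leading probe set of one gene on the 4 control arrays (blue) and the 4 cisplatin arrays (red), with the mean and SD as bars; all panels span the same range of log2 units around different levels. Msh3 and Pms1 lie lower on all 4 cisplatin arrays, Pms2 lies higher on all 4, and the groups of Msh6 and Mlh3 overlap.

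**Figure D2:**
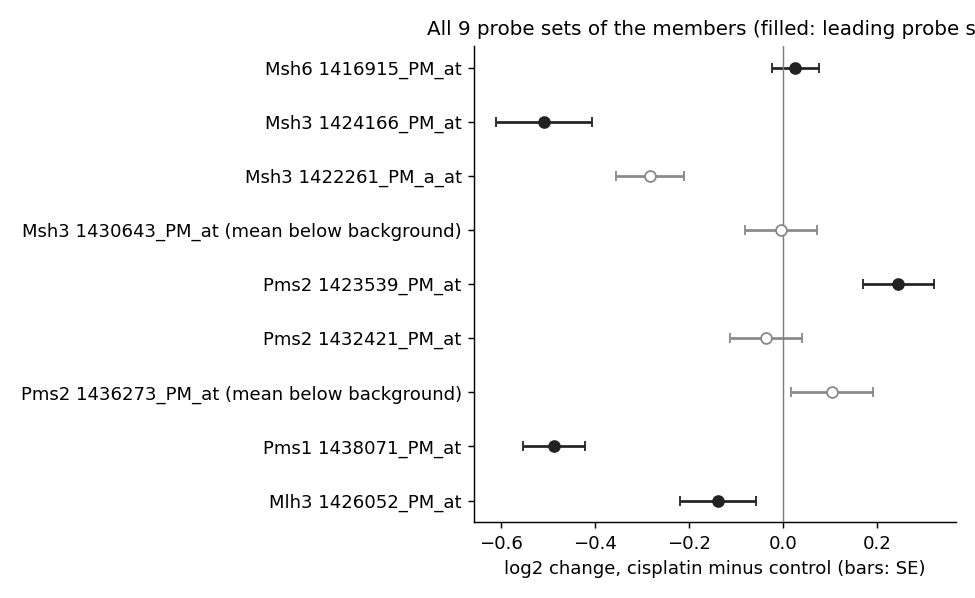
Points are the log2 change (cisplatin minus control) of each of the 9 probe sets from the fit over all probe sets with 1 gene, with the SE as bars; filled points are the leading probe sets. Both probe sets of Msh3 above background lie below 0, whereas of the 3 probe sets of Pms2 the leading one, at 0.24, stands above the others.

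Within the MutL family the changes differed between genes. The log2 difference between Pms1 and Pms2 was lower by 0.73 ± 0.09 with cisplatin, that between Pms1 and Mlh3 was lower by 0.35 ± 0.11, and that between Pms2 and Mlh3 was higher by 0.38 ± 0.11. Each of these gave p = 0.0286 in the two-sided exact permutation test, the smallest p these arrays allow, and 0.0286 after adjustment over the 4 pairs. The differences share genes and are not independent of each other. Differences taken within an array do not move when all genes of the array are shifted together. For Pms2 against Mlh3 the mean of the probe sets gave 0.24 and an adjusted p of 0.0857 (exact permutation test).

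Both Pms1 and Pms2 start beside a gene on the opposite strand, so that the promoter windows of the 2 genes overlap. Pms1 shares 166 bases of its promoter window with that of Ormdl1, whose product restrains the first step of sphingolipid synthesis, and Pms2 shares 261 bases with Aimp2, which encodes a scaffold protein of the aminoacyl-tRNA synthetase complex. The windows, from 250 bases before to 50 after a transcript start, are shown 5′ to 3′ on the member's strand. They are shown because the leading probe sets of the partners changed unequally. For Pms2 and Aimp2 the difference in change was only 0.07 with the mean of all probe sets. Capitals mark each CCAAT box, in either orientation (CCAAT or ATTGG). The sequences and positions are from RefSeq, build GRCm38.p6; Pms1 is on the minus strand at chr1:53296979-53297278 and Pms2 on the plus strand at chr5:143909751-143910050.
Pms1: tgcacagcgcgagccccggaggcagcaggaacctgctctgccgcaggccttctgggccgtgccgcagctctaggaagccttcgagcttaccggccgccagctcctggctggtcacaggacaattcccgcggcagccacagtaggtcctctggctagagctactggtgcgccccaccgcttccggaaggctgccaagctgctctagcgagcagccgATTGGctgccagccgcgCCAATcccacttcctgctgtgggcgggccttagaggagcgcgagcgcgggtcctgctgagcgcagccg
Pms2: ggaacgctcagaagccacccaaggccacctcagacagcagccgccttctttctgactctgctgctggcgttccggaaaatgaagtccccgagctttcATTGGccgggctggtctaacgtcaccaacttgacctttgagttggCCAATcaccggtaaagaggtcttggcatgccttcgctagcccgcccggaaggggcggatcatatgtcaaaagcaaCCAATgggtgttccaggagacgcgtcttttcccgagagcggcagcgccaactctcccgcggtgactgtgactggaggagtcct

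The Pms1 window held 2 CCAAT boxes and the Pms2 window 3, and 37.4% of the 32851 promoter windows of the same length held at least 1 on either strand. The GC box GGGCGG occurred at 1 place in the Pms1 window and at 2 in the Pms2 window, on either strand, against 35.7% of all windows with at least 1. G and C made up 68.3% of the bases for Pms1 and 58.3% for Pms2. Neither window held a match to the p53 half-site, which 8.36% of all windows held. A match is only a description of the letters.

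The neighbours of Pms1 and Pms2 did not pass the test. Ormdl1 read 8.57, 8.46, 8.51 and 8.64 on the cisplatin arrays and 8.50, 8.48, 8.55 and 8.58 on the control arrays, a change of 0.01 ± 0.06 (limma adjusted p = 0.903). Its groups overlapped fully, while those of Pms1 stood apart on the same arrays. The log2 difference between Pms1 and Ormdl1 was lower by 0.50 ± 0.07 with cisplatin (two-sided exact permutation test, p = 0.0286, and 0.0286 adjusted over these 2 pairs).

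Aimp2 read 10.41, 10.45, 10.40 and 10.44 with cisplatin and 10.39, 10.41, 10.35 and 10.48 in the controls, a change of 0.02 ± 0.05 (limma adjusted p = 0.871). The difference between Pms2 and Aimp2 was higher by 0.23 ± 0.06 with cisplatin (exact permutation p = 0.0286, adjusted p = 0.0286). With the mean of all probe sets of each gene it was 0.07 (exact permutation, adjusted p = 0.200), so this comparison shares the dependence of Pms2 on its bright probe set. After centring, the small changes of Ormdl1 and Aimp2 turned to -0.12 and -0.11.

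**Figure D3:**
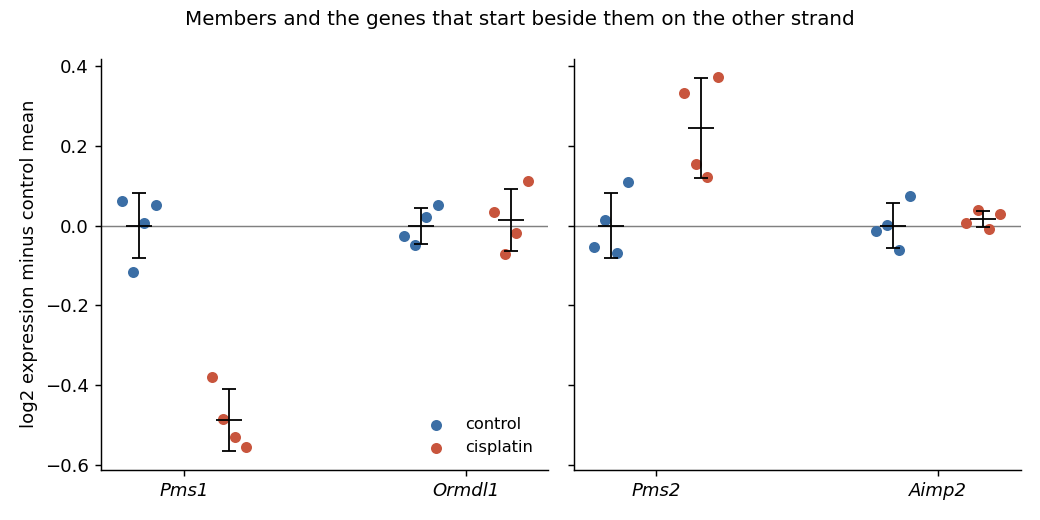
Points are the log2 expression of each array minus the control mean of the same gene, for Pms1 with Ormdl1 and for Pms2 with Aimp2, controls in blue and cisplatin in red, with mean and SD as bars. Pms1 lies about 0.49 below its control mean and Pms2 about 0.24 above its own, while the groups of Ormdl1 and Aimp2 overlap.

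The members that fell are the longest of the 5. Msh3 spans 143 kb and Pms1 108 kb in the mouse reference annotation, whereas Pms2 spans 62.8 kb, Mlh3 36.2 kb and Msh6 15.8 kb. Over the whole array, 26.9% of the 2124 genes of more than 100 kb were lower and 3.58% higher, with a median change of -0.09. Among the 8415 genes under 20 kb, 2.21% were lower and 13.9% higher, with a median of 0.04. In the class of 50 to 100 kb, to which Pms2 belongs, 8.01% were higher and 14.2% lower. The neighbours Ormdl1, at 13.2 kb, and Aimp2, at 7.14 kb, are short. The changes of Msh3 and Pms1 were larger than the median of their length class, and the part of gene length in them was not tested.

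**Figure D4:**
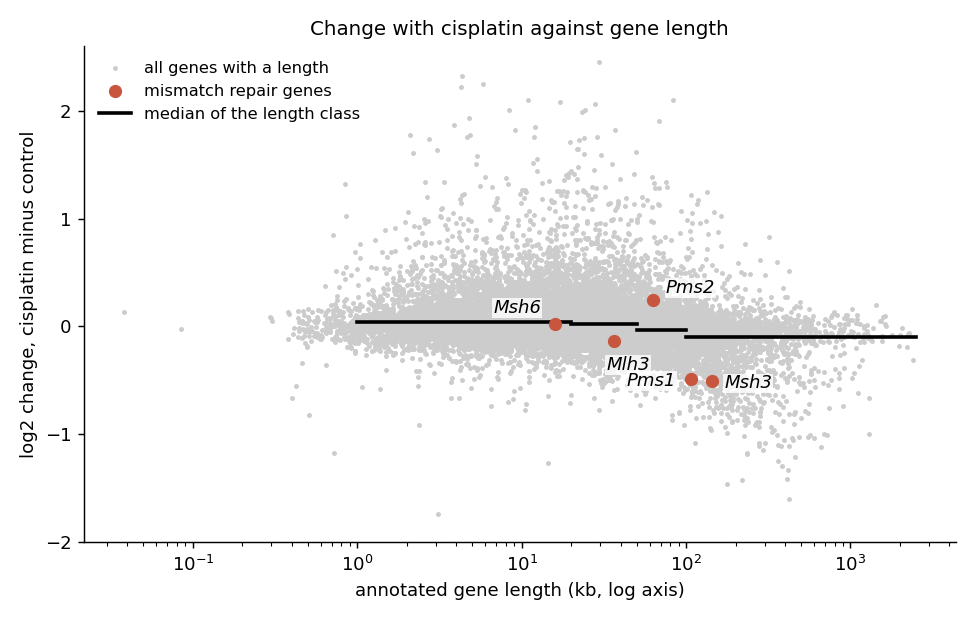
Each grey point is a gene, with its annotated length in kb on a log axis and its log2 change (cisplatin minus control) on the other axis; black lines are the medians of the 4 length classes and red points the mismatch repair genes. Msh3 and Pms1, at 143 and 108 kb, lie below the median of -0.09 for genes of over 100 kb.

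Beyond these genes, 25 further genes of the pathway and its relatives were measured. Among 15 genes of mismatch excision and resynthesis, which remove and refill the faulty stretch, 3 rose, 12 did not pass and none fell, with a median change of 0.02, where 11.6% of all genes were higher and 7.69% lower. They were Rpa2, a subunit gene of the single-strand binding protein, at 0.19 ± 0.05 (limma adjusted p = 0.0241), and the clamp loader genes Rfc3 and Rfc2 at 0.20 ± 0.06 (adjusted p = 0.0379) and 0.17 ± 0.05 (adjusted p = 0.0468). Rpa2 read 9.80, 9.75, 9.74 and 9.81 with cisplatin against 9.56, 9.61, 9.52 and 9.64 in the controls. The 3 calls were lost after centring, at adjusted p-values of 0.439, 0.415 and 0.614 (limma), and in all Rpa2 lost its call in 7 of 18 alternatives, Rfc3 in 10 and Rfc2 in 13. Rpa2 lost it when cisplatin replicate 3 or 6 or control replicate 3 or 5 was left out, Rfc3 with any array left out but cisplatin replicate 4, and Rfc2 with any but control replicate 6 (highest limma adjusted p = 0.0688, 0.0951 and 0.124). With the mean of its 3 probe sets Rfc2 was at 0.092 (limma adjusted p = 0.222). The exonuclease gene Exo1 was at -0.05 ± 0.08, the clamp gene Pcna at 0.04 ± 0.05 and the ligase gene Lig1 at -0.03 ± 0.05, all short of the threshold (adjusted p = 0.727, 0.661 and 0.718).

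Among 8 associated genes, 1 was higher and 1 lower, against the same 11.6% and 7.69% of all genes. Mbd4, a glycosylase gene for mispaired thymine and uracil, rose by 0.41 ± 0.07 (limma adjusted p = 0.00179). Its arrays read 7.42, 7.30, 7.37 and 7.51 with cisplatin and 6.98, 7.08, 6.88 and 7.03 in the controls. Its groups stood apart, as for 14.2% of all genes in this direction. Mcm9, which encodes a helicase linked to mismatch repair and recombination, fell by 0.54 ± 0.10 on the log2 scale (limma adjusted p = 0.00329). It read 4.64, 5.04, 5.07 and 5.10 with cisplatin and 5.46, 5.52, 5.52 and 5.52 in the controls. Cisplatin replicate 3 was the low one, and without it the change was -0.44. The mean of its 4 probe sets changed by -0.24 (limma adjusted p = 0.0118). Mcm9 spans 93.7 kb and Mbd4 12.7 kb.

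Other genes of these lists stayed short of the threshold. Neil1, a glycosylase gene for oxidised bases, was at 0.26 ± 0.09 (limma adjusted p = 0.0735) and passed without cisplatin replicate 6 (0.35, adjusted p = 0.00532). The meiotic MutS homologs Msh4 and Msh5 lay close to background, at 3.47 and 3.21 with cisplatin and 3.38 and 3.42 in the controls (adjusted p = 0.648 and 0.209). Msh5 passed after centring, at -0.34 (adjusted p = 0.0305), and without cisplatin replicate 4, at -0.31 (adjusted p = 0.0499). Over the 25 genes the 5 calls fell to 2 without cisplatin replicate 3, control replicate 3 or control replicate 5, and to 3 without cisplatin replicate 5 or 6 or control replicate 4.

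Genes with the most similar profiles were found by the root mean square difference over the 8 arrays, each gene's mean subtracted, among 10996 genes above background. For Pms1 these were Enah and Ibtk, both at 0.05, which changed by -0.46 and -0.45. For Msh3 they were Cdh9 and Abtb2, both at 0.07, with changes of -0.47 and -0.59; on the cisplatin arrays both lay near the background of 3.10, which limits the size of a fall. Pms2 was closest to Zfp101, at 0.03, and Cep19, at 0.04, with changes of 0.24 and 0.26. Mlh3 was closest to Zmym3 and Ccdc59, both at 0.05, and Msh6 to Dhx30, at 0.01, and Rps28, at 0.02. These genes were picked for their values, which are given as a description.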

How the data were processed

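Total RNA from 8 ES cell samples was hybridised to 1 array each. The deposited values are log2 expression levels, which the authors made by RMA per the submitters' processing notes; the notes also name limma, without versions or settings. RMA sets the arrays to one distribution, which hides any change in the total amount of RNA. Probe sets were named through the platform annotation, with symbols updated through Entrez identifiers in a RefSeq table (GRCm38.p6) for 16937 of 17098 genes; the 551 probe sets with several genes and 15588 with none listed were left out, besides 104 controls. Background is the mean of the control probes with 24 G or C among 25 bases, 3.10.

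Groups come from the sample titles. The groups were compared with limma 3.58.1 (lmFit, eBayes, group only) under R 4.3.3, and p-values were adjusted by Benjamini-Hochberg over all 17098 genes at a threshold of 0.05; the median SE was 0.08. The fit was tested on simulated data. Gene pairs were compared by exact permutation of the within-array differences, with the arrays of the 2 groups taken as unpaired. Members, lists, tests and the rule for named genes (all members, called genes and the 3 smallest p of each pathway list, Cdkn1a, Mdm2, genes starting within 1 kb on the other strand, and the 2 nearest profiles per member) were chosen with earlier results of these data known. Exo1, Pcna and Lig1 were named besides, after their values were seen. The neighbour pairs were tested after seeing the files. Alternatives covered probe set choice, dim genes, normalization, centring, test settings, threshold, a replicate block and leaving out single arrays. Figures were drawn with matplotlib 3.10.9.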

Additional observations from a re-analysis of the deposited data

Results flagged for a closer look

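In 5 of 62 groups of 4 arrays examined, 1 array stood far from the rest of its group by Dixon's test of its gap to the nearest one, where chance alone gives about 1 in 20. All 5 were replicate 3. For Msh3, cisplatin replicate 3 read 4.71 on probe set 1422261_PM_a_at, with the nearest array at 4.58, and 2.72 on the below-background probe set 1430643_PM_at, with the nearest at 2.44. For Mcm9, cisplatin replicate 3 read 4.64 (nearest 5.04) and control replicate 3 read 5.46 (nearest 5.52). For Rps28, control replicate 3 read 13.20 (nearest 13.22).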

How the results depend on the processing

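Msh3 and Pms1 stayed lower and past the threshold in all 18 alternatives, at -0.64 to -0.26 and -0.62 to -0.46. Without single arrays Msh3 ran from -0.58 to -0.44, Pms2 from 0.20 to 0.29, Mlh3 from -0.19 to -0.08 and Msh6 from 0.02 to 0.04. Pms2 lost its call with the most variable probe set (0.24, limma adjusted p = 0.0565), the mean of the probe sets (0.10), centring (0.11), an ordinary t statistic (0.24, adjusted p = 0.0818), a threshold of 0.01 (0.24) and all probe sets tested together (0.24, adjusted p = 0.0510). Centring, which lowers every change by 0.13, also brought Mlh3 past the threshold at -0.27 and turned Msh6 to -0.10, Ormdl1 to -0.12, Aimp2 to -0.11, Msh4 to -0.033, Dhx30 to -0.10 and Rps28 to -0.11. It moved the calls over all genes from 3303 to 5012 (1087 higher, 3925 lower, against 1989 and 1314), and a threshold of 0.01 moved them to 1855. Quantile normalization of the leading probe sets left the total at 3286, but with 1575 higher and 1711 lower. Without single arrays Ormdl1 ran from -0.018 to 0.043 and Aimp2 from -0.0036 to 0.041. The 5 calls among the 25 pathway genes were 4 higher and 1 lower. They became 3 with the most variable probe set and 2 at 0.01, and 2 to 5 without single arrays. After centring there were 8 calls, 1 higher and 7 lower, so most then went the other way. With the mean of the probe sets, the differences of Pms2 to Mlh3 (0.24), Pms1 to Ormdl1 (-0.50, adjusted p = 0.0571) and Pms2 to Aimp2 (0.070) no longer passed the exact permutation test; for Pms1 and Ormdl1, each with 1 probe set, the adjustment alone moved. Same-numbered arrays of the groups correlated in their deviations at 0.20, 0.18, 0.20 and 0.065, and arrays of unlike number at -0.17 to 0.11. Each cisplatin array correlated most with the control of its own number. From the other side this did not hold for control 6, which correlated more with cisplatin 3 (0.11) than with cisplatin 6 (0.065). The labels name no pairing, and whether the numbers mark pairs was not tested. The main fit and the permutation tests took the arrays as unpaired. With the replicate number as a block, 3447 genes and 3 of the pathway genes were called (Rfc3 and Rfc2 no longer passed, limma adjusted p = 0.0627 and 0.0571), and no member's call changed. Levels near background, as for Msh4, Msh5, Cdh9, Abtb2 and the dim probe sets of Msh3 and Pms2, limit what can be seen there.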
